A study of Mus musculus with 4 samples.

Results

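The ubiquitin-specific proteases (USPs) are the largest family of deubiquitinating enzymes in mammals, and this account describes their transcripts apart from Usp28 in mouse embryonic stem cells labelled Usp28 KO and in control cells. Members were the protein-coding genes on autosomes or the X chromosome whose GENCODE M21 symbol is Usp followed by a number and optional letters. Usp28, Usp25, Usp7, Usp29 and the Usp17l genes were left out by the rule, which used no measured value. It found 45 genes among the 55401 of the deposited table, 40 on autosomes and 5 on the X chromosome, spread over 16 chromosomes. The Usp28 KO group held 2 libraries of R1 embryonic stem cells, a male mouse line, with the genotype given as Usp28 KO. The CTL group held 2 libraries of R1 cells labelled wild type. Both grew on gelatin in N2B27 medium with the MEK inhibitor PD0325901, the GSK3 inhibitor CHIR99021 and leukaemia inhibitory factor. The labels do not say how the knockout was made or whether it is 1 clone. They also name no separate cultures, so a p-value here reflects library-to-library spread that may be technical.

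A USP cuts the bond between ubiquitin and a substrate protein, or between ubiquitin molecules in a chain, with a catalytic cysteine. Ubiquitin on a protein can send it to the proteasome, move it between membranes or change what it binds, and each USP reverses this for its own set of substrates. In embryonic stem cells the family is known for work on histone ubiquitin, DNA repair, signalling and the turnover of pluripotency factors.

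The 4 libraries had totals of 16595196 to 19533608 counts, with the share from mitochondrial genes at 1.92% and 3.33% in Usp28 KO and 2.77% and 5.65% in CTL libraries. Usp28 itself had 3392 and 3319 counts in the libraries labelled Usp28 KO, against 3690 and 3120 in CTL libraries (log2 fold change -0.11 ± 0.15 (SE); edgeR, adjusted p = 0.857). A gene-level count does not check a knockout made by a small edit, so each direction given is between libraries as labelled. All 8 embryonic stem cell markers were detected, with summed levels of 4442 and 4731 CPM (counts scaled to a common library total) in Usp28 KO and 5379 and 5237 CPM in CTL libraries. Of 8 fibroblast markers 7 were under 1 CPM, with Postn, Dcn and Lum at 0. The other, Pdgfrb, had 4.23 and 7.09 CPM in Usp28 KO and 3.07 and 4.04 CPM in CTL libraries. Of 7 extraembryonic endoderm markers 5 were under 1 CPM, with Afp and Ttr at 0. Gata4 had 9.47 and 8.7 CPM in Usp28 KO and 8.04 and 6.05 CPM in CTL libraries. Gata6 had 1.02 and 1.87 CPM in Usp28 KO and 1.64 and 0.757 CPM in CTL libraries. Markers of neural progenitors summed to 79.9 and 79.5 CPM in Usp28 KO and to 104 and 70.1 CPM in CTL libraries, and those of mesoderm to 16.7 and 25.6 CPM against 16.4 and 23.3 CPM. Of 7 neural markers 4 were under 1 CPM, with Neurog2 at 0, and of 6 mesoderm markers 3 were. Tubb3 was the highest neural marker and Eomes the highest mesoderm marker in every library. Libraries also differed in how level depended on transcript GC content: the rank correlation across genes was 0.0032 and 0.451 in Usp28 KO replicates 1 and 2, and 0.0554 and -0.441 in CTL replicates 1 and 2, each against the mean of the other libraries over 10700 genes, which are not independent replicates. What part these differences have in any result was not tested.

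Of the 45 members, 33 had an entry in the RefSeq promoter table (GRCm38.p6). The 250 bases before the start site are shown for 4 of them, 5′ to 3′ on the strand of the gene, with each CG dinucleotide in capitals. Usp11 and Usp51 had the smallest p among members with an entry, Usp8 was among the 4 highest levels and Usp26 had the lowest level above 0. The windows are chrX:20703659-20703908 (+ strand) for Usp11, chrX:153006219-153006468 (+ strand) for Usp51, chr2:126707078-126707327 (+ strand) for Usp8 and chrX:51801234-51801483 (- strand) for Usp26.
Usp11: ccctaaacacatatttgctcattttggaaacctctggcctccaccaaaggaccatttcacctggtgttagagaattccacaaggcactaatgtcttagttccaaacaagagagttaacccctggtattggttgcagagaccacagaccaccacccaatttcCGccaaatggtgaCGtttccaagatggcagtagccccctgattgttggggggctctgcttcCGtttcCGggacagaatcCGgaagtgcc
Usp51: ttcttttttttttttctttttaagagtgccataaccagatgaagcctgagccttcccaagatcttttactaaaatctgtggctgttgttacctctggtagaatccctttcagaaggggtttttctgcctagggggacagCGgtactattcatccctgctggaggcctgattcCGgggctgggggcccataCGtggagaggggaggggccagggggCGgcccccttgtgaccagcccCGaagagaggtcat
Usp8: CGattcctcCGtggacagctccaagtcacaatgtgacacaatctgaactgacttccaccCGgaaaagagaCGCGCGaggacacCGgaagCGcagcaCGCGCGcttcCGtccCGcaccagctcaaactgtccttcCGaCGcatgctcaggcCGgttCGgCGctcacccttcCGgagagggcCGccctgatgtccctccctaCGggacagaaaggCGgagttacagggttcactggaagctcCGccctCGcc
Usp26: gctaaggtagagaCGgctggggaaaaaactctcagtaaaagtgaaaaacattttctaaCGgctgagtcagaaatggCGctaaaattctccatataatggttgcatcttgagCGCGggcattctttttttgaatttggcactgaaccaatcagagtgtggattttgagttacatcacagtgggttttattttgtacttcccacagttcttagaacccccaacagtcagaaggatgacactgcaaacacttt
Usp8 had 24 CG dinucleotides in this window, as had the X-linked Usp27x, and the X-linked Usp11, Usp51 and Usp26 had 5 each. Over the 33 members the count ran from 2 for Usp50 to 35 for Usp47 with a median of 23, against a median of 6 over all 32851 windows of the table, which includes noncoding genes. At least 10 stood in 25 members, and in 37.8% of all windows.

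The members with few CG dinucleotides were spread over the whole range of levels. Usp10 (6), Usp11 (5) and Usp54 (4) had mean levels of 54.6, 22.4 and 7.87 CPM per kb of exon, while Usp50 (2) and Usp26 (5) had 0.376 and 0.0622 CPM per kb. Usp2, with 25 CG dinucleotides, was at 0.879 CPM per kb. Some windows lie well inside the gene as counted, among them those of Usp54, Usp2, Usp30, Usp37 and Usp45. That of Usp54 is chr14:20618355-20618604 (- strand), in a gene from 20548912 to 20641063. The Usp2 window is chr9:44084670-44084919 (+ strand), in a gene from 44067021 to 44095627. The levels are of the whole gene, and which start site was used was not tested. The letters GGGCGG, read on either strand, stood in 23 of the 33 members (69.7%) and in 32.7% of all windows. CCGGAA stood in 11 members (33.3%), Usp11, Usp51 and Usp8 among them, and in 12% of all windows; on the other strand it can share bases with GGGCGG. The letters TATAAA stood in Usp19 and Usp40 (6.06%) and in 12.4% of all windows, CACGTG in Usp4, Usp16 and Usp31 (9.09% against 6.02%), and CCAAT in 5 members (15.2% against 33.8%). These are matches of letters in one window and not measured sites.

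**Figure D1:**
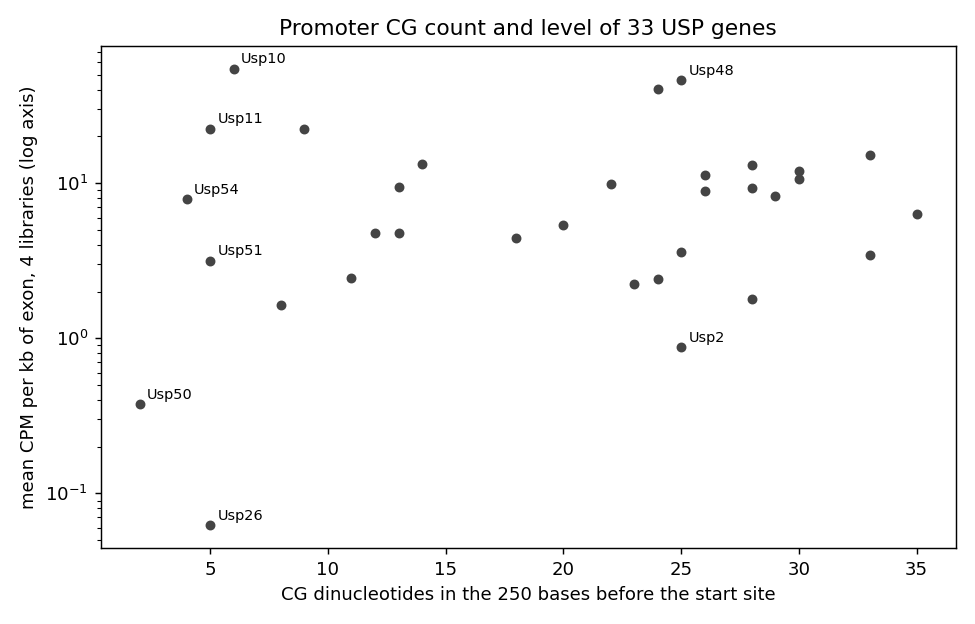
Number of CG dinucleotides in the 250 bases before the listed start site (x axis) for the 33 members with a promoter entry. The y axis (log scale) gives mean CPM per kb of exon over the 4 libraries. For some members, such as Usp54 and Usp2, the listed site lies well inside the gene. Among genes with few CG dinucleotides the level runs from 0.0622 (Usp26) to 54.6 CPM per kb (Usp10).

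Most of the family was expressed, over a wide range of levels. Of the 45 members 43 passed the filter on low counts, each with at least 10 counts in every library, so none entered the test through 1 group alone; Usp18 and Usp26 did not pass. Summed over all members, the family took 4267 and 4475 CPM in Usp28 KO libraries and 4423 and 4807 CPM in CTL libraries, and the ranges of the groups overlapped. Levels of different genes are set side by side only per kb of exon. The median tested member stood at 8.51 CPM per kb, against 4.97 CPM per kb for the median of all genes tested. The 6 highest members, named next, were also the 6 highest with the longest transcript as the length.

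Usp10, which acts on p53 and on ribosomal proteins of the small subunit, had the highest level at 51.5 ± 10.6 CPM per kb in Usp28 KO and 57.7 ± 3.86 CPM per kb in CTL libraries (SD, n = 2 each). Here and below, ± after a level is this SD, and ± after a log2 fold change is the SE of the edgeR fit. Usp1, which with its cofactor WDR48 removes ubiquitin from FANCD2 and PCNA, followed at 42.6 ± 6.01 and 54.0 ± 9.77 CPM per kb in Usp28 KO and CTL libraries. Usp48, a nuclear enzyme linked to histone H2A ubiquitin at DNA breaks, was at 45.6 ± 1.13 CPM per kb in Usp28 KO and 46.8 ± 4.43 CPM per kb in CTL libraries. Its libraries had 434 and 450 CPM in Usp28 KO and 423 and 484 CPM in CTL. The ranges of Usp10, Usp1 and Usp48 over the 4 libraries overlapped, so the order of these 3 is not fixed by the data. Usp8, which acts at endosomes on receptors bound for the lysosome, stood at 38.4 ± 7.15 CPM per kb in Usp28 KO and 42.6 ± 9.06 CPM per kb in CTL libraries, on 140 and 182 CPM in Usp28 KO and 152 and 205 CPM in CTL libraries. Replicate 2 was the higher one in each group. Usp9x, required for mouse embryonic development, stood at 35.3 ± 0.677 and 40.0 ± 4.96 CPM per kb, and Usp5, which takes apart free ubiquitin chains, at 38.3 ± 1.80 and 36.1 ± 4.46 CPM per kb in Usp28 KO and CTL libraries. Usp5 had 183 and 171 CPM in Usp28 KO libraries and 181.5 and 152 CPM in CTL libraries, with overlap. Each of these, with Usp22 and Usp39, overlapped its neighbour in the order.

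Below these 8 genes the ranges of neighbours parted 7 times. Usp39, whose product works in the spliceosome and lacks the catalytic residues, was above Usp11 in every library, at 35.4 against 22.4 CPM per kb on average. Usp19, an enzyme anchored in the endoplasmic reticulum membrane, was above Usp14, the proteasome's USP, at 22.3 against 16.9 CPM per kb. The other breaks lay between Usp54 and Usp47, Usp40 and Usp2, Usp43 and Usp50, Usp50 and Usp26, and Usp26 and Usp18. All other neighbours overlapped.

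The bottom of the order held 5 genes under 1 CPM per kb. Usp2, a broad-acting enzyme tied to cyclin D1 and the circadian clock, and Usp43 averaged 0.879 and 0.762 CPM per kb over the 4 libraries. Usp50, a relative of Usp8 described as inactive, had 14 and 26 counts in Usp28 KO and 20 and 24 counts in CTL libraries. Usp26, known from the testis, had 9 and 5 counts in Usp28 KO libraries against 3 and 2 counts in CTL libraries. The Usp26 counts of the groups did not overlap, but they gave a ratio of Usp28 KO over CTL of 2.65 with an exact 95% counting interval of 0.901 to 9.39, which includes no difference; this interval covers counting error only. Usp18, which removes the ubiquitin-like protein ISG15, had 0 counts in all 4 libraries, which at a floor of 3 counts allows up to 0.161 and 0.16 CPM in Usp28 KO and 0.154 and 0.189 CPM in CTL libraries.

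**Figure D2:**
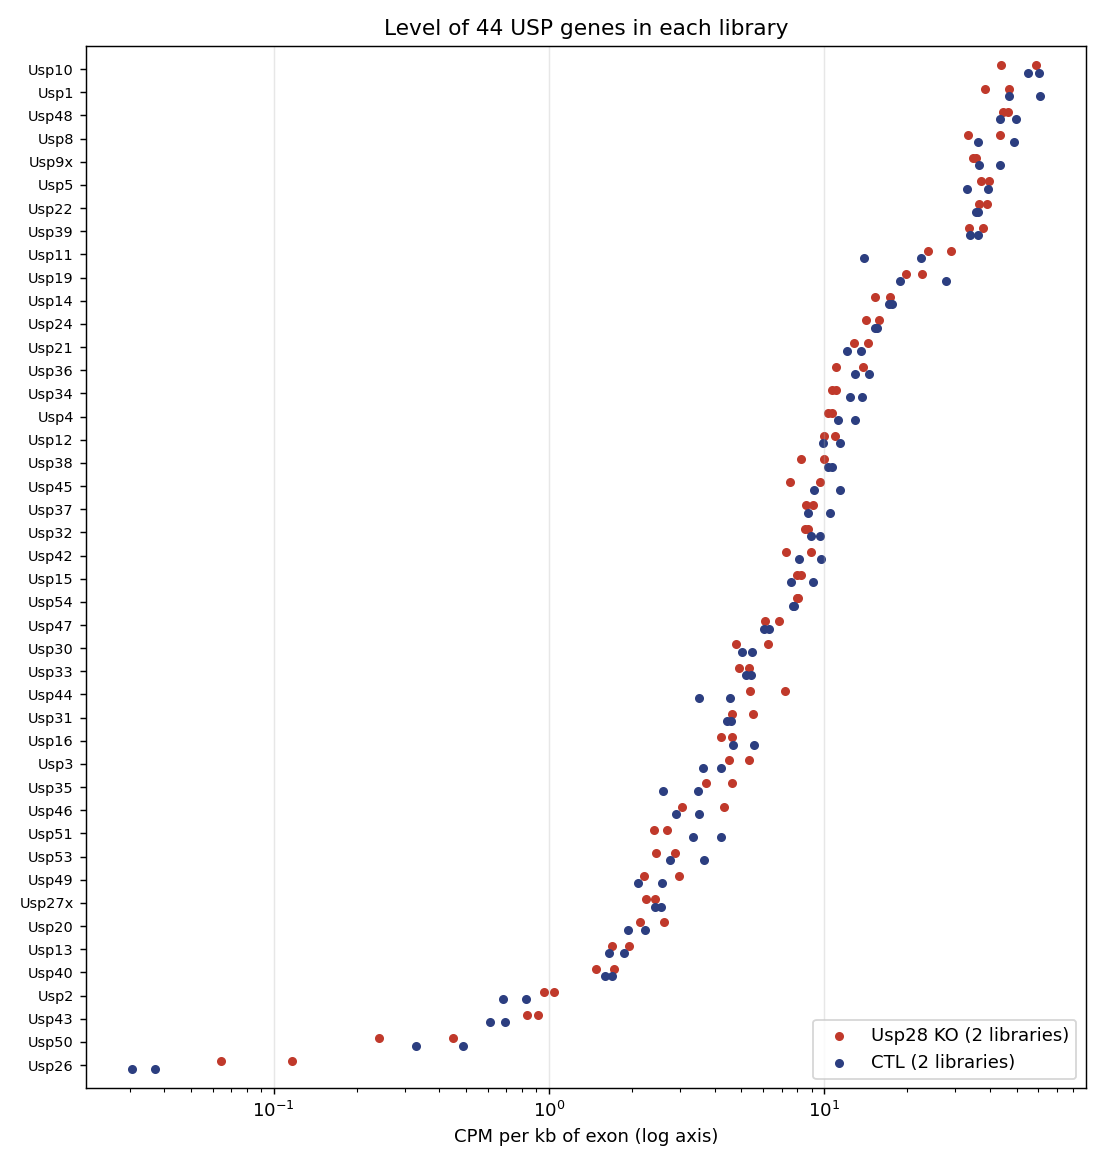
CPM per kb of exon (x axis, log scale) of 44 members in each of the 2 Usp28 KO and 2 CTL libraries, ordered by the mean of the 4 libraries; Usp18, at 0 counts, is not drawn. Usp10 is highest at a mean of 54.6 and Usp26 lowest at 0.0622 CPM per kb, and for most genes the 4 points lie closer to each other than to the ends of the range.

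Between Usp28 KO and CTL libraries, no member passed the test. In bulk RNA, a lower level in every cell and fewer cells with the transcript cannot be told apart. By edgeR's quasi-likelihood test with Benjamini-Hochberg adjustment over all 15341 genes tested, 0 of 43 members passed an adjusted p of 0.05 in either direction, and 0.0% of all genes were called. At an unadjusted p under 0.05, 2 members were higher, Usp44 and Usp11, and 0 lower (4.65% in all), against 6.86% of all genes higher and 4.34% lower. DESeq2 called 0 of 42 members with an adjusted p, against 1.08% of all genes (0.687% higher and 0.393% lower). At an unadjusted p it had 2 members higher and 0 lower, against 8.05% of all genes (4.54% and 3.51%). Limma-voom called 0 of 43, with 0.0% of all genes, and at an unadjusted p also 2 higher and 0 lower, against 6.85% and 4.3% of all genes. After GC correction 2 members were higher and 1 lower at an unadjusted edgeR p under 0.05, against 5.54% and 5.57% of all genes. With the replicate number as a block, 3 members were higher and 0 lower at an adjusted edgeR p under 0.05, against 6.29% and 4.67% of all genes; the labels name no shared batch behind the numbers. With GC correction as well, 3 were higher and 5 lower, against 6.9% and 9.86%.

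The sizes were small for most members. The log2 fold changes (Usp28 KO minus CTL) ran from -0.57 for Usp51 to 0.64 for Usp44, and 1 of 43, Usp44, reached 1.5-fold, against 14.7% of all genes. Members are longer than most genes, with a median of 7048 against 3925 bases of exon, and had a higher median level per kb. The shares of all genes given here are not matched for length or level, and genes with low counts vary more. The median absolute log2 fold change was 0.15, and the 2 libraries of a group differed by a median of 0.19 in Usp28 KO and 0.20 in CTL on the log2 scale. The fold change sets groups of 2 libraries against each other and the gap sets single libraries, which vary more, so the values are not directly comparable. For 10 members (23.3%) the difference between the groups was larger than the gap between replicates in both groups, against 29.4% of the 15321 genes with a count in every library. The signs were 18 positive and 25 negative, at 41.9% and 58.1%, against 49.4% and 50.6% of all genes tested, with a median of -0.040 against -0.0040; the family median was 0.018 with upper-quartile scaling and 0.024 with library totals. Groups did not overlap for 9 members higher and 9 lower in Usp28 KO libraries (20.9% each), close to the 21.4% and 20.4% of all genes. The unadjusted 95% interval of the fold change lay within 2-fold in either direction for 37 members and reached further for Usp44, Usp11, Usp51, Usp2, Usp43 and Usp50.

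**Figure D3:**
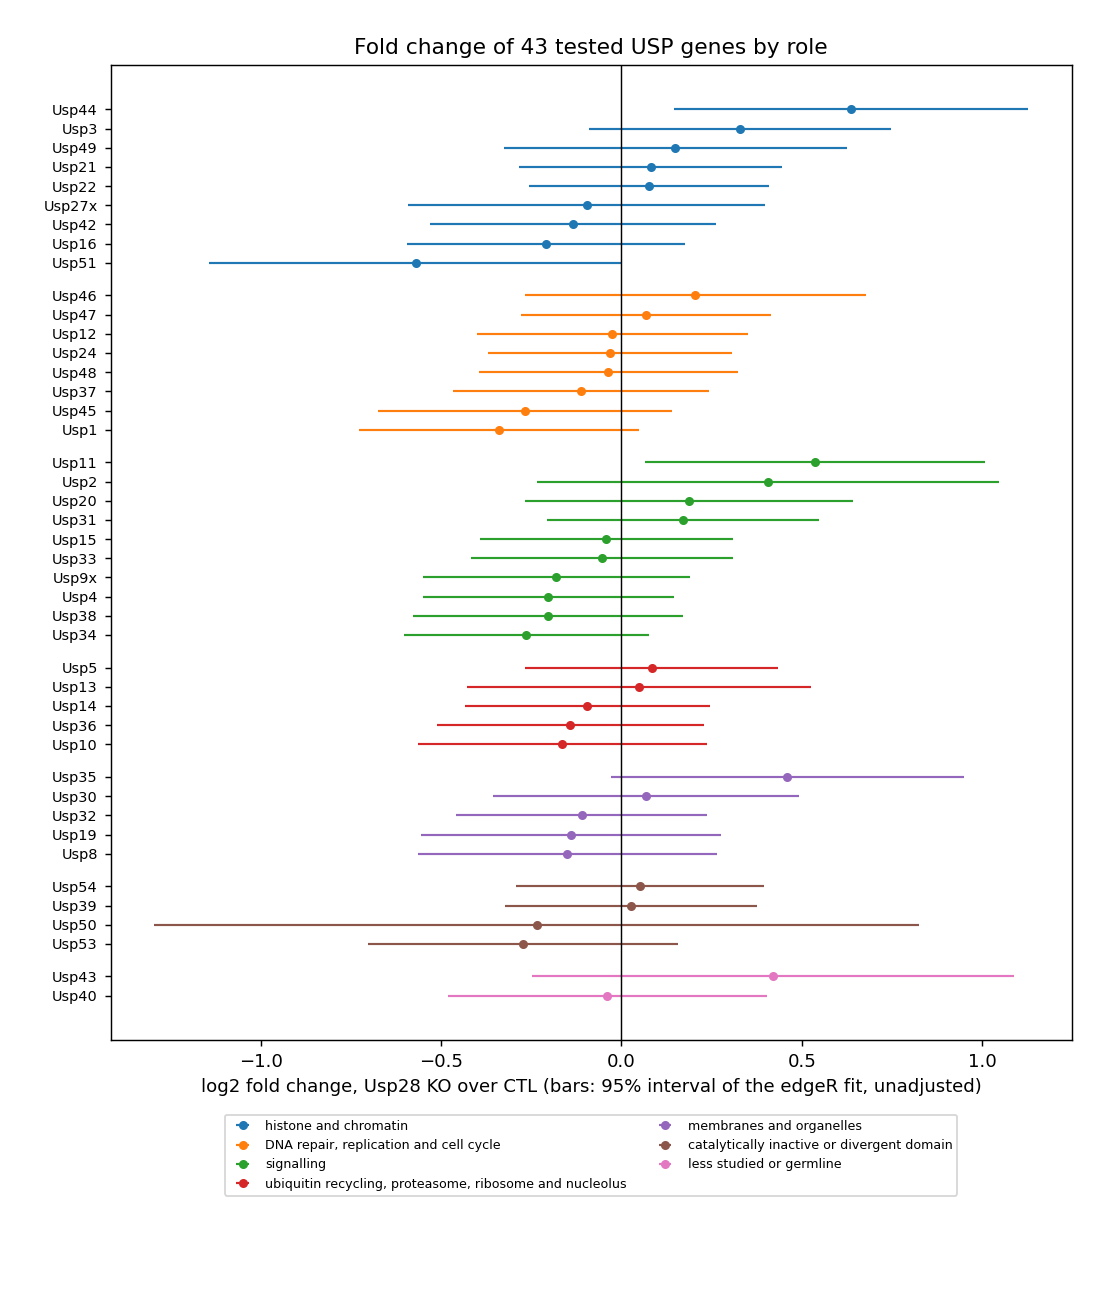
Log2 fold change of Usp28 KO over CTL (x axis) for the 43 tested members, coloured by role, with the unadjusted 95% interval of the edgeR fit as bars. The intervals of Usp44 and Usp11 lie above 0, that of Usp51 ends at 0.001, and the others cross 0.

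Among the members that act on histones and chromatin, Usp44 had the largest positive difference and Usp51 the largest negative one. Usp44 removes ubiquitin from histone H2B and has been studied in the differentiation of mouse embryonic stem cells. The gene (GRCm38 chromosome 10, 93831555 to 93858088) had 29.1 and 21.6 CPM in Usp28 KO libraries, against 18.3 and 14.2 CPM in CTL libraries. Both Usp28 KO libraries were above both CTL libraries, and replicate 1 was above replicate 2 in each group. The log2 fold change was 0.64 ± 0.23 (SE; 95% interval 0.15 to 1.13; edgeR, adjusted p = 0.322, and 0.00172 to 0.810 over the alternatives). It was 0.63 after GC correction and ran from 0.41 to 0.83 with a library left out.

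Usp51, which works on ubiquitin of histone H2A, is a relative of Usp22 on the X chromosome, at 153006469 to 153009416. It had 5.30 and 5.92 CPM in Usp28 KO libraries, against 7.37 and 9.33 CPM in CTL libraries. The groups did not overlap, on counts of 99 and 111 in Usp28 KO and 144 and 148 in CTL libraries. Its log2 fold change was -0.57 ± 0.26 (SE; 95% interval -1.14 to 0.0010; edgeR, adjusted p = 0.446, and 0.0398 to 0.934 over the alternatives), and -0.57 after GC correction.

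Usp22, the catalytic subunit of the deubiquitinating module of the SAGA coactivator, had one of the smaller differences of this group. It had 179 and 191 CPM in Usp28 KO libraries and 176 and 174 CPM in CTL libraries, a log2 fold change of 0.077 ± 0.15 with a 95% interval of -0.26 to 0.41. Per kb, Usp22 made 93.8% and 93.6% of the sum of Usp22 and Usp51 in Usp28 KO libraries, against 91.5% and 89.4% in CTL libraries. Usp27x, the other relative that can join this module, had a log2 fold change of -0.097 ± 0.23. Usp3, an H2A enzyme, had 30.8 and 36.65 CPM in Usp28 KO libraries and 24.9 and 28.9 CPM in CTL libraries; its groups did not overlap, and the log2 fold change was 0.33 ± 0.19 (edgeR, adjusted p = 0.575, and 0.0389 to 0.871 over the alternatives). Usp16, an H2A enzyme needed for gene activation when stem cells differentiate, had a log2 fold change of -0.21 that was 0.0078 after GC correction; its transcript has a GC content of 38.2%, the lowest of the family. Usp21, Usp42 and Usp49, also enzymes for histone ubiquitin, had log2 fold changes of 0.081, -0.14 and 0.15, and the group's 9 members had a median of 0.077, which was 0.008 after GC correction.

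**Figure D4:**
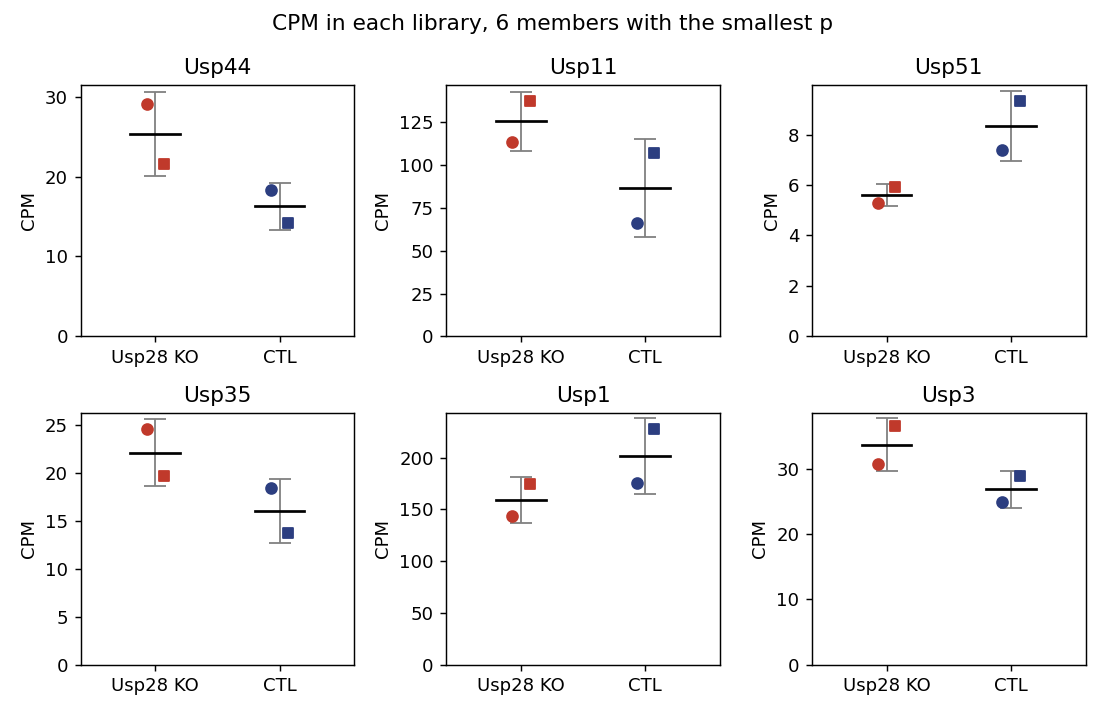
CPM in each library (y axis, from 0) of the 6 members with the smallest edgeR p, with circles for replicate 1, squares for replicate 2, a black bar for the mean and grey bars for the SD. The 2 Usp28 KO libraries lie above the 2 CTL libraries for Usp44, Usp11, Usp35 and Usp3, and below them for Usp51 and Usp1, where the gap between the groups is narrow.

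Usp11 had the largest difference among the members that act in signalling, and its 2 CTL libraries were far apart. Usp11, on the X chromosome at 20703906 to 20720539, is a relative of Usp4 and Usp15, which share its domain order; these enzymes act on TGF-beta receptors, and Usp11 also on the repair protein BRCA2. It had 113 and 137 CPM in Usp28 KO libraries, against 66.2 and 107 CPM in CTL libraries. The groups did not overlap, by a margin of 113 against 107 CPM, and replicate 2 was above replicate 1 in each. The log2 fold change was 0.54 ± 0.22 (SE; 95% interval 0.065 to 1.01; edgeR, adjusted p = 0.376, and 0.000592 to 0.830 over the alternatives). Without CTL replicate 2 it was 0.91 (edgeR, adjusted p = 0.0279), the only call of a member with a library left out. That fit has 1 CTL library, assumed to vary like the Usp28 KO libraries, and called 125 genes higher and 38 lower in all. The lowest value with a library left out was 0.23.

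The paralogs of Usp11 had smaller differences of the other sign. Usp4 had 92.5 and 88.8 CPM in Usp28 KO libraries, against 111 and 97.1 CPM in CTL libraries, with no overlap and a difference of -0.20 ± 0.16 on the log2 scale (edgeR, adjusted p = 0.688). Usp15 had 136 and 133 CPM in Usp28 KO libraries and 126 and 152 CPM in CTL libraries, and the groups overlapped (log2 fold change -0.042 ± 0.16; 0.044 after GC correction). Per kb, Usp11 made 74.5% and 78.4% of the sum of Usp11 and Usp15 in Usp28 KO libraries, against 64.9% and 71.2% in CTL libraries. Usp4 made 30.9% and 26.2% of the sum of Usp4 and Usp11 in Usp28 KO libraries, against 48.0% and 33.3% in CTL libraries. In both pairs the share of Usp11 was higher in each Usp28 KO library than in either CTL library, but both rest on the same Usp11 values. This is not particular to Usp11. Shares also parted between the groups in other pairs, such as Usp35 with Usp38, and overlapped in others, such as Usp5 with Usp13. Among single genes, 41.8% of all genes tested did not overlap.

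Usp9x, which acts on several signalling proteins, had 523.5 and 538 CPM in Usp28 KO libraries, against 549 and 654 CPM in CTL libraries. The groups did not overlap, and the log2 fold change of -0.18 ± 0.17 was -0.025 after GC correction (GC content 40.0%). Usp34, a very large enzyme that acts on axin in human cells, had 198 and 203 CPM in Usp28 KO libraries, against 228 and 253 CPM in CTL libraries. It too did not overlap between the groups, at -0.26 ± 0.16 on the log2 scale (adjusted p = 0.580 by edgeR), or -0.16 once GC content was corrected for. Usp2 had 5.03 and 4.64 CPM in Usp28 KO libraries, against 3.99 and 3.28 CPM in CTL libraries, again without overlap, and a difference of 0.41 ± 0.30 on the log2 scale (edgeR, adjusted p = 0.665). Usp20 and Usp33, related enzymes that act on membrane receptors, had log2 fold changes of 0.19 and -0.054. Those of Usp31 and Usp38 were 0.17 and -0.20. The median of the 10 tested signalling members was -0.048, and it was 0.009 with upper-quartile scaling, 0.015 with library totals and 0.024 after GC correction.

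In the group for DNA repair, replication and the cell cycle, Usp1 had the smallest p. It had 143 and 175 CPM in Usp28 KO libraries, against 176 and 227 CPM in CTL libraries. The higher Usp28 KO library, replicate 2, reached 175.0 CPM and the lower CTL library, replicate 1, had 175.7 CPM, so the groups were apart by less than 1 CPM. The log2 fold change was -0.34 ± 0.18 (SE; 95% interval -0.73 to 0.049; edgeR, adjusted p = 0.518, and 0.0119 to 0.986 over the alternatives). Usp45, which acts on the repair protein ERCC1, had 60.1 and 46.7 CPM in Usp28 KO libraries and 57.4 and 71.2 CPM in CTL libraries, with overlap and a log2 fold change of -0.27 ± 0.19 that was -0.096 after GC correction. Usp12 and Usp46, which share the cofactor WDR48 with Usp1, had log2 fold changes of -0.025 ± 0.17 and 0.20 ± 0.22. Usp37, which stabilises cyclin A in human cells, Usp47, which acts on DNA polymerase beta, and Usp24 and Usp48 lay between -0.11 and 0.068. Groups did not overlap for 1 of these 8 members, Usp1, against 41.8% of all genes. The median was -0.034, and it was 0.023 with upper-quartile scaling and 0.029 with library totals.

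The 5 members for ubiquitin recycling, the proteasome, the ribosome and the nucleolus all overlapped between the groups, where 41.8% of all genes did not, and had a median log2 fold change of -0.095. Usp14, which trims ubiquitin from substrates held at the proteasome, had 145 and 128 CPM in Usp28 KO libraries and 144 and 147.5 CPM in CTL libraries (log2 fold change -0.095 ± 0.16, and 0.076 after GC correction). Usp10, the family's highest per kb, had 421 and 564 CPM in Usp28 KO libraries and 525 and 577 CPM in CTL libraries, a log2 fold change of -0.16 ± 0.18. Usp5 and its relative Usp13 had log2 fold changes of 0.084 and 0.049, and Usp36, a nucleolar enzyme, of -0.14. Per kb, Usp5 made 95.9% and 95% of the pair Usp5 and Usp13 in Usp28 KO libraries, against 95.5% and 95.2% in CTL libraries.

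Among the members at membranes and organelles, Usp35 had the largest difference. Human USP35 has been placed at mitochondria and in the control of mitosis. The mouse gene had 24.6 and 19.6 CPM in Usp28 KO libraries, against 18.4 and 13.7 CPM in CTL libraries, with no overlap and a difference of 0.46 ± 0.23 on the log2 scale (edgeR, adjusted p = 0.480, and 0.0474 to 0.967 over the alternatives). Its transcript has the highest GC content of the family, 59.1%, and the log2 fold change was 0.27 after GC correction. Usp30, of the outer mitochondrial membrane, had a log2 fold change of 0.068 ± 0.20, and Usp8, Usp19 and Usp32 of -0.15, -0.14 and -0.11. Usp19 had 159 and 139 CPM in Usp28 KO libraries and 196 and 133 CPM in CTL libraries, so the gap between the 2 CTL libraries was wider than that between the groups. The 5 members had a median log2 fold change of -0.11.

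The 4 members long described as inactive or as having a divergent catalytic domain had a median log2 fold change of -0.10. Usp39 had a log2 fold change of 0.026 ± 0.16 and Usp54 of 0.052 ± 0.16; Usp54 had 72.5 and 72.9 CPM in Usp28 KO libraries and 69.9 and 70.3 CPM in CTL libraries. Usp53, which mouse hearing depends on, had 30.7 and 36.0 CPM in Usp28 KO libraries and 34.6 and 46.0 CPM in CTL libraries, with overlap and a log2 fold change of -0.27 ± 0.20 that was -0.12 after GC correction. Usp50 had a log2 fold change of -0.24 ± 0.49. Of the remaining genes, Usp43 had 4.33 and 3.95 CPM in Usp28 KO libraries, against 3.28 and 2.90 CPM in CTL libraries, without overlap (log2 fold change 0.42 ± 0.31; edgeR, adjusted p = 0.670). Usp40 had a log2 fold change of -0.040.

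The fold change of the members went with the GC content of their transcripts. GC content ran from 38.2% to 59.1% with a median of 48.5%, against 49.7% for all genes tested. Across the 43 members, which share the same 4 libraries, Spearman's rho between GC content and log2 fold change was 0.408; it was 0.323 across 10700 genes of at least 5 CPM. After GC correction it was -0.094 over the members. The correction removes the fitted GC trend of each library, so this fall follows largely from the method. Usp44, Usp11 and Usp51, with a GC content of 47.9%, 48.8% and 48.1%, had log2 fold changes of 0.63, 0.53 and -0.57 after it. The members with the largest shifts were at the ends of the GC range, such as Usp16 and Usp35. How far GC content accounts for any single difference was not tested.

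**Figure D5:**
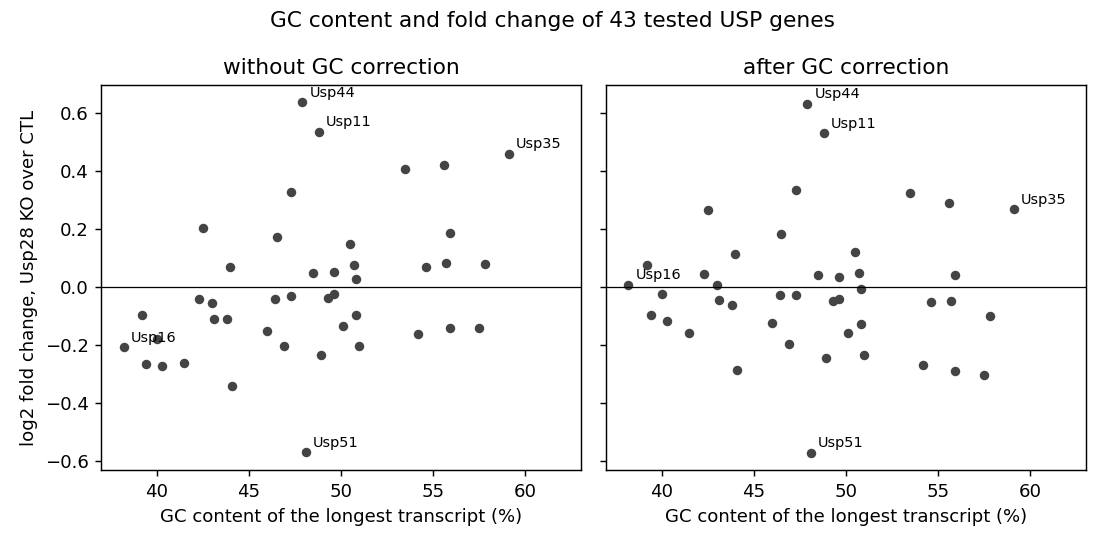
GC content of the longest transcript (x axis, percent) against log2 fold change of Usp28 KO over CTL (y axis) for the 43 tested members, before (left) and after (right) the GC correction. Spearman's rho is 0.408 on the left and -0.094 on the right, where the correction removes a GC trend by design. Usp44, Usp11 and Usp51 keep their places.

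The other deubiquitinase families and the partners of the USPs, drawn up by function, also held 0 members past the tests of edgeR, DESeq2 and limma-voom. Of all genes, edgeR and limma-voom called 0.0% and DESeq2 1.08%, so this count does not set these lists apart. The 15 OTU family genes had a median log2 fold change of -0.089, with 2 higher and 2 lower at an unadjusted edgeR p under 0.05, against 6.86% and 4.34% of all genes. Otud7a (1.18 and 2.13 CPM in Usp28 KO libraries, against 0.717 and 0.568 CPM in CTL libraries) and Otud6a were the higher ones, both at low level. Otud6b had 67.0 and 74.0 CPM in Usp28 KO libraries, against 87.1 and 98.1 CPM in CTL libraries, which is -0.39 on the log2 scale (adjusted p = 0.389 by edgeR). The 7 zinc-dependent JAMM genes had a median of -0.11, and 2 were lower at an unadjusted edgeR p under 0.05, against 4.34% of all genes. That median was -0.122 with DESeq2, -0.02 with limma-voom and 0.015 with GC correction and the replicate block. Brcc3, which cuts lysine-63-linked chains in BRCA1 complexes, and Mysm1, a histone H2A enzyme, had log2 fold changes of -0.52 and -0.42 that were -0.17 and -0.26 after GC correction. The 5 UCH genes, the 3 Josephin genes and the 5 MINDY and ZUFSP genes had medians of -0.0045, 0.0014 and 0.16. An unadjusted edgeR p under 0.05 was reached by 0 of these genes, against 11.2% of all genes. Those medians were 0.129, -0.169 and 0.243 after GC correction, and that of the UCH genes was 0.052 with upper-quartile scaling. Cyld and Pan2, which carry a USP fold under other names, had log2 fold changes of -0.13 and 0.012.

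The 17 genes for cofactors and partner subunits, which include the WDR48 cofactor, the SAGA module and the Usp10 partners G3bp1 and G3bp2, had a median of -0.088. Of these, 5 were positive and 12 negative, against 49.4% and 50.6% of all genes tested. An unadjusted edgeR p under 0.05 was reached by 0 of them, against 11.2% of all genes. The 32 proteasome subunit genes had a median of -0.045, also with 0 at that p against the same 11.2%. Their median was 0.012 with upper-quartile scaling, 0.016 with library totals and -0.133 to 0.064 with a library left out. Of the 9 genes of the ISG15 system in which Usp18 works, 5 passed the filter, with a median of 0.002. Irf9, a subunit of the interferon-activated factor ISGF3, had 15.5 and 21.1 CPM in Usp28 KO libraries, against 27.9 and 29.8 CPM in CTL libraries. Its log2 fold change was -0.66, the 1 gene of this list at an unadjusted p under 0.05, against 4.34% of all genes lower (adjusted p = 0.269 by edgeR).

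Some members share exon sequence with other genes, and the strand setting of the counting is not given. Exons of 19 members overlapped another gene on either strand. On the same strand the overlap was 51.2% of exon length for Usp49, 6.57% for Usp50, 1.04% for Usp10 and 0.578% for Usp15. The largest overlaps on the opposite strand were those of Usp14, Usp33, Usp38, Usp43 and Usp34, at 26%, 24.4%, 20.5%, 12.8% and 11.6%. The counts of members with overlap are therefore less certain. Usp44, Usp11, Usp51, Usp35, Usp1 and Usp3 had no such overlap in GENCODE M21.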

How the data were processed

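The authors deposited raw read counts per gene for 4 poly(A) libraries. HISAT2, featureCounts, DESeq2 and mm10 stand in the submitters' processing notes without versions, and the counting strand and annotation are not stated. Of 55401 gene identifiers 55141 matched GENCODE M21.

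In R 4.3.3, edgeR 4.0.16 kept 15341 genes (filterByExpr, minimum count 10, minimum total 15). It used TMM scaling and a robust quasi-likelihood test of Usp28 KO over CTL, and called genes at a Benjamini-Hochberg adjusted p under 0.05. A standard error is the absolute log2 fold change over the root of its F statistic. CPM use TMM-scaled totals of the genes kept, and CPM per kb the deposited gene length. The GC correction takes, per library, the deviation of log CPM from the gene's mean over the 4 libraries. It fits this deviation on the GC content of the longest transcript with a natural spline of 5 degrees of freedom. Alternatives were DESeq2 1.42.0, limma-voom 3.58.1, other scalings and filters, GC correction, a replicate block and leaving out each library. The fits were also run on simulated counts. These had no GC trend and no deviation shared by same-numbered libraries, so they do not test the fits under either.

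Members, lists and role groups were chosen with earlier results of these data known. Values per library are given for the 12 members with the smallest p, the 6 highest per kb, those below the filter, and Usp9x, Usp22, Usp44, Usp1, Usp14, Usp18 and Usp2; each list gives up to 3 genes with the smallest p. A further list of genes is not reported here. Values of Usp15, Usp19, Usp50 and Usp54 were added after being seen. Replicates differed by more than sampling noise (chi-square per degree of freedom 28.2 in Usp28 KO and 30.2 in CTL).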

Additional observations from a re-analysis of the deposited data

How the results depend on the processing

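Over the 43 tested members and 15 alternatives, 578 of 644 recomputed log2 fold changes kept their direction and side of the threshold, 54 in 23 members changed sign and 12 passed the threshold. The members called were Usp44, Usp11 and Usp35 with a replicate block, Usp44, Usp11, Usp3, Usp51, Usp1, Usp10, Usp19 and Usp36 with the block and GC correction, and Usp11 without CTL replicate 2.

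For all genes, against 0 called higher and 0 lower, DESeq2 called 89 and 51, upper-quartile scaling 18 and 3, library totals 24 and 5, no filter on low counts 204 and 118, and leaving out mitochondrial and the 20 most abundant genes 4 and 3. With a library left out the counts ran from 49 to 146 higher and from 31 to 200 lower; the higher and lower counts were 111 and 31 without Usp28 KO replicate 1, 146 and 200 without Usp28 KO replicate 2, 49 and 94 without CTL replicate 1 and 125 and 38 without CTL replicate 2. The cause was not tested.

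Same-numbered libraries deviated together. Across 10700 genes of at least 5 CPM, the difference between replicates 1 and 2 in CTL had a correlation of 0.517 with that in Usp28 KO. There are only 2 such pairs of libraries and the labels name no shared batch, so the pairing is a shared number only. With the replicate block 965 genes (6.29%) were higher and 716 (4.67%) lower, among them 3 members higher: 1 in the histone group, 1 in signalling and 1 at membranes. The block also called 1 OTU gene higher and 1 lower, 2 JAMM genes lower and 1 ISG15 gene lower. The block with GC correction gave 1058 genes higher (6.9%) and 1511 lower (9.86%), and 3 members higher (2 histone, 1 signalling) and 5 lower: 1 each in the histone, DNA repair and membrane groups and 2 in recycling. It also called, lower, 3 OTU genes, 1 JAMM gene, 3 cofactors, 1 ISG15 gene and 2 proteasome genes.

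With upper-quartile scaling the median log2 fold change was 0.018 for the family, 0.052 for UCH, -0.032 for OTU, 0.059 for ISG15 and 0.009 for signalling genes. Usp40 (0.018), Usp33 (0.003), Usp24 (0.026), Usp48 (0.021), Usp12 (0.032) and Usp15 (0.016) changed sign. With library totals the medians were 0.024 for the family, 0.054 for UCH, -0.03 for OTU, 0.064 for ISG15, 0.015 for signalling and -0.048 for membrane genes, and Usp40 (0.024), Usp33 (0.007), Usp24 (0.031), Usp48 (0.026), Usp12 (0.035) and Usp15 (0.022) changed sign. Without a filter the median was 0.172 for ISG15 genes and 0.419 for the less studied members. With at least 50 counts in 2 libraries it was -0.138 for OTU, 0.011 for MINDY and ZUFSP and 0.016 for ISG15 genes.

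GC correction gave medians of 0.129 for UCH, -0.129 for OTU, -0.169 for Josephin, 0.243 for MINDY and ZUFSP, -0.046 for ISG15, 0.008 for histone and 0.024 for signalling genes. Usp21 (-0.101), Usp33 (0.008), Usp30 (-0.051), Usp39 (-0.005), Usp5 (-0.05), Usp15 (0.044), Usp16 (0.008) and Usp14 (0.076) changed sign. With the replicate block added the medians were 0.125 for UCH, -0.129 for OTU, -0.168 for Josephin, -0.046 for ISG15, 0.008 for histone and 0.026 for signalling genes. There Usp21 (-0.102), Usp33 (0.01), Usp30 (-0.056), Usp39 (-0.006), Usp5 (-0.05), Usp15 (0.045), Usp16 (0.008) and Usp14 (0.078) changed sign. Medians also changed sign for DNA repair (0.023) and proteasome genes (0.012) with upper-quartile scaling, and for DNA repair (0.029), proteasome (0.016) and the pair of Cyld and Pan2 (0.002) with library totals. They did so for the inactive or divergent members with at least 50 counts in 2 libraries (0.04) and for JAMM genes with GC correction and the block (0.015). Josephin and ISG15 medians were between -0.009 and -0.003 with DESeq2, its size factors in edgeR, and without the most abundant genes, as was the Josephin one with limma-voom. With the longest transcript as the length the family median level was 11.3 CPM per kb.

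With a library left out, 0 to 1 member was called, 0 to 1 in signalling. The medians ran from -0.064 to -0.008 for the family, -0.081 to 0.121 for histone, -0.087 to 0.016 for signalling, -0.105 to -0.015 for DNA repair, -0.114 to 0.031 for recycling, -0.099 to 0.075 for membrane, -0.244 to 0.082 for inactive or divergent and 0.098 to 0.27 for less studied members. In the other lists they ran from -0.042 to 0.077 for UCH, -0.2 to -0.011 for OTU, -0.472 to -0.087 for JAMM, -0.004 to 0.257 for MINDY and ZUFSP, -0.101 to -0.014 for cofactor, -0.012 to 0.013 for ISG15, -0.12 to 0.127 for Josephin and -0.133 to 0.064 for proteasome genes. Members whose sign changed ran from -0.131 to 0.077 (Usp12), -0.067 to 0.109 (Usp39), -0.401 to 0.163 (Usp19), -0.241 to 0.018 (Usp37), -0.015 to 0.171 (Usp21), -0.359 to 0.075 (Usp8), -0.749 to 0.139 (Usp50), -0.064 to 0.148 (Usp13), -0.132 to 0.054 (Usp48), -0.047 to 0.214 (Usp5), -0.173 to 0.09 (Usp15), -0.071 to 0.43 (Usp46), -0.299 to 0.007 (Usp42), -0.017 to 0.143 (Usp47), -0.395 to 0.031 (Usp10), -0.322 to 0.015 (Usp36), -0.154 to 0.061 (Usp40), -0.113 to 0.04 (Usp24), -0.143 to 0.247 (Usp30) and -0.081 to 0.342 (Usp49). Leaving out a library leaves 1 in its group, which is assumed to vary like those of the other group. With 2 libraries a group, low counts limit the precision of Usp50 and Usp26.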
